A study of Mus musculus with 24 samples.

Results

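The genes described here are those named as subunits of the proteasome. They were chosen by name, as every mouse gene symbol that begins with Psma, Psmb, Psmc, Psmd or Psme and ends in a number, after each array probe had been given its current symbol through its RefSeq transcript. This rule found 42 of the 23787 genes with a symbol on the array, measured by 64 probes, and 41 of them, with 62 probes, were bright enough to be tested. The rule uses names and no value measured in these cells, but the genes were chosen for study with earlier results of these data known. The array had no probe that was matched to Psme2, which was not analysed here.

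Transcripts were measured in TM3 cells, an established line of mouse Leydig cells, the interstitial cells of the testis that make testosterone. In all groups the cells were detached, washed and suspended in a buffer inside electroporation cuvettes. The nsPEF groups then received nanosecond pulsed electric fields, given as 80 pulses of 60 ns at 5.5 kV and 14 kV/cm, and the sham groups were handled in the same way without the pulses. RNA was taken at 0 h, 4 h and 24 h from 4 biological replicates per group, which gave 6 groups and 24 one-colour Agilent arrays. The 8 arrays of a time point shared 1 slide, so that the time point and the slide cannot be told apart, and the sham arrays stood in the first row of each slide and the nsPEF arrays in the second, so that the treatment and this row cannot be told apart either.

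The proteasome is the barrel-shaped protease that degrades proteins tagged with ubiquitin. Its 20S core is built of stacked rings of alpha subunits, which form the gate, and beta subunits, some of which carry the active sites, and a 19S regulatory particle of ATPase and non-ATPase subunits caps the core, captures and unfolds substrates and feeds them in. In cells exposed to interferon, other beta subunits replace the constitutive active ones to form the immunoproteasome, whose peptides are favoured for presentation on class I molecules, and the caps can be exchanged for other activators. Transcription of the constitutive subunits is known to rise together through the transcription factor Nrf1, encoded by Nfe2l1, when proteasome capacity is short.

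All levels are log2 processed signals minus the 75th percentile of the array, so that a difference of 1 is a 2-fold change relative to the scale of the array, and levels are compared only within a probe. P-values are from limma, with Benjamini-Hochberg adjustment across the 37687 probes tested, which stand for 16843 genes. A gene is called higher or lower where the adjusted p is below 0.05. The 75th percentile of the raw signal was 253.5 to 532.7 intensity units on the sham arrays, brightest on replicate 4 of sham 4 h, and 201.8 to 336.4 on the nsPEF arrays, and 57.48% to 62.12% of probes of sham and 51.2% to 57.22% of nsPEF were well above background. Of 9 Leydig cell markers on the array, Star, Cyp17a1, Nr5a1, Gata4 and Scarb1 were well above background on all 24 arrays, whereas Lhcgr, Cyp11a1, Hsd3b1 and Hsd17b3 were on 0, so that several defining markers of the labelled cell type were not detected. Of 5 macrophage markers, Csf1r, Cd68 and Cd14 were well above background on all 24 arrays, and Ptprc and Adgre1 on 1 array each. Sox9 and Wt1 of 5 Sertoli cell markers, Acta2 and Cnn1 of 4 peritubular myoid markers, Tnp1 of 7 germ cell markers and Pecam1 of 3 endothelial markers were also well above background on all 24 arrays. In bulk RNA, fewer cells that make a transcript and less transcript per cell cannot be told apart.

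The upstream sequences of some of the genes with the largest changes in sham at 4 h or 24 h against 0 h are shown first. Subunit genes that moved together can thus be set beside those that moved the other way. The RefSeq promoter table (GRCm38.p6) held a promoter for 35 of the 42 genes, 37 promoters in all, and no entry was matched to Psma8, Psmb1, Psmb2, Psmb7, Psmc3, Psmd3 or Psmd7. The 250 bases before the transcription start were searched on both strands for 7 motifs, and matches are in capitals. Psmd5, Psmd11, Psmd12 and Psme4 rose between 0 h and 4 h. Psme4 had the largest rise in sham at 24 h against 0 h. At 4 h Psmd6, Psmd7 and Psmc4, which are not shown, rose more than Psme4.
Psmd5 (chr2:34870963-34871212, minus strand): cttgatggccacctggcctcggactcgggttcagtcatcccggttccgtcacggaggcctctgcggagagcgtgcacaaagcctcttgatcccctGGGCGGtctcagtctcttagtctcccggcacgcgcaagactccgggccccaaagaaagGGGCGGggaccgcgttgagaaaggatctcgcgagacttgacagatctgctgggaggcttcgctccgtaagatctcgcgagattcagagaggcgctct
Psmd11 (chr11:80428365-80428614, plus strand): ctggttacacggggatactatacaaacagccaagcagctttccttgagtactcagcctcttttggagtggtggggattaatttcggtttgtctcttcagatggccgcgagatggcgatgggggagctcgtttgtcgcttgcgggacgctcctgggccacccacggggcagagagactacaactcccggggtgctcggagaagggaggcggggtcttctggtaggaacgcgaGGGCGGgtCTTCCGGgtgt
Psmd12 (chr11:107479278-107479527, plus strand): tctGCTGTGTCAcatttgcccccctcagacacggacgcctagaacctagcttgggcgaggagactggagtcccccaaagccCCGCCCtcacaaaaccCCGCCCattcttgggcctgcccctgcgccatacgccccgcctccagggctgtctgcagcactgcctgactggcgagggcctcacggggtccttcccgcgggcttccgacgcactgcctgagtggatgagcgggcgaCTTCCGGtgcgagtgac
Psme4 (chr11:30771525-30771774, plus strand): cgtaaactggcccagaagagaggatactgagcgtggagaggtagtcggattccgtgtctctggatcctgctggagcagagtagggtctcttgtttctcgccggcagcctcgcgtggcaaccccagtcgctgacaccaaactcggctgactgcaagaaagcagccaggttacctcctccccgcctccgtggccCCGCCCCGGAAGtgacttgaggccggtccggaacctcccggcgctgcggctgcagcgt

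In the Psmd5 window, GGGCGG (the Sp1 box) stood 155 to 150 and 97 to 92 bases before the start. Close to the start of Psmd11 stood GGGCGG at 19 to 14 bases and CTTCCGG, the reverse complement of the Ets factor core CCGGAAG, at 11 to 5 bases. Psmd12 had the same CTTCCGG at 17 to 11 bases, CCGCCC, which is GGGCGG on the other strand, at 169 to 164 and 153 to 148 bases, and a match to TGACNNNGC, the core of the antioxidant response element, at 247 to 239 bases. In Psme4, CCGCCC at 58 to 53 bases and CCGGAAG at 53 to 47 bases overlapped by 1 base.

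Psmb8, Psmb9 and Psmd10 fell between 0 h and 4 h. Psmb9 and Psmd10 are shown only as far as the start of the neighbour on the opposite strand, Tap1 and Atg4a, which leaves 225 and 195 bases.
Psmb8 (chr17:34197945-34198194, plus strand): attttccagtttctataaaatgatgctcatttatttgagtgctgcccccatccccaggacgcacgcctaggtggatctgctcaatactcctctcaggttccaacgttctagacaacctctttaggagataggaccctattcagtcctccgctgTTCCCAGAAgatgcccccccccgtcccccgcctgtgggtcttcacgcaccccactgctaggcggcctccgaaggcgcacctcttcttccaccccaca
Psmb9 (chr17:34187331-34187555, minus strand): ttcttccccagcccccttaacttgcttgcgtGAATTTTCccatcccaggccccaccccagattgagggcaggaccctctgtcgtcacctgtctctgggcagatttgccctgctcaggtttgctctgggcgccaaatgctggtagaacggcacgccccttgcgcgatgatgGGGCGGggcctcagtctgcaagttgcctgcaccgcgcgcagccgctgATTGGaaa
Psmd10 (chrX:140956712-140956906, minus strand): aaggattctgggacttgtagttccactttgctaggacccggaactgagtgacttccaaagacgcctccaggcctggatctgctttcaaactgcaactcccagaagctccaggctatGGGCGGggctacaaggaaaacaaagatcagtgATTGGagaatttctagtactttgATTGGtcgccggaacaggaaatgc

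Psmb8 had a match to TTCNNNGAA, the interferon gamma activated site, at 97 to 89 bases, the only one among the 37 promoters. Psmb9 had GAANNTTC (the heat shock element) at 194 to 187 bases, GGGCGG at 55 to 50 bases and ATTGG, the CCAAT box on the other strand, at 8 to 4 bases. Psmd10 had ATTGG at 47 to 43 and 24 to 20 bases and GGGCGG at 79 to 74 bases.

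Over the 37 promoters, of which Psma6 and Psmc2 had more than 1, the share holding CCGGAAG was furthest from that in the table. It stood in 12 of them (32.4%), against 6.91% of the 32851 promoters of the table, in 9 of 15 promoters of 19S subunits (60.0%) and in 1 of 12 promoters of the constitutive 20S core (8.33%). GGGCGG was in 54.1% of the 37 and 32.7% of the table, CCAAT in 37.8% and 33.8%, TGACNNNGC in 13.5% and 10.2%, GAANNTTC in 5.41% and 6.69%, TTCNNNGAA in 2.7% and 7.02%, and TGACGTCA, the cyclic AMP response element, in 0 of 37 and 1.55%. These are matches of letters and do not show that a factor binds.

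In sham cells the regulatory particle genes rose between 0 h and 4 h while the immunoproteasome genes fell. Of the 41 genes, 17 were called higher (30.8% of all genes tested) and 5 lower (34.6% of all genes), with a median log2 difference of 0.15 against -0.04 over all genes. The rise lay mostly in the 19S particle, counted here by its Psmc and Psmd subunits without Psmd5, Psmd9 and Psmd10. Of these 17 subunits 12 were called higher and 0 lower, and all 17 had a positive difference, with a median of 0.32. In the constitutive 20S core 2 of 14 were called higher, Psma3 and Psmb2, and 0 lower, with a median of 0.08. Replicate 4 of sham 4 h was low for this core. Relative to sham 0 h the core's median was -0.06 on that array, against 0.14, 0.09 and 0.16 on replicates 1, 2 and 3. The 19S median was 0.19 on it, against 0.39, 0.38 and 0.31. The number called higher or lower depended on the scaling and was 13 and 8 when the percentile was taken over probes detected on all arrays. That scaling moved the median of all genes from -0.04 to -0.16 and left the members' median relative to all genes at 0.19. Under it 9 of 17 19S subunits were higher and 0 lower, and the constitutive 20S core had 2 higher and 3 lower. The Ets core CCGGAAG stood in 8 of 15 promoters of the genes called higher (53.3%), 0 of 5 of those called lower and 4 of 17 of the others (23.5%). It stood in 9 of 15 promoters of 19S subunits, called or not, and 12 of the 17 genes called higher encode 19S subunits. Whether the motif goes with the rise or with the particle was not tested.

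The 19S non-ATPase subunits form the lid and part of the base, and 8 of 11 were called higher in sham at 4 h. Psmd11, a lid subunit, measured 2.49, 2.47, 2.55 and 2.56 in sham 0 h and 3.13, 3.15, 3.22 and 3.20 in sham 4 h. Every array at 4 h lay above every array at 0 h (1.58-fold, log2 difference 0.66 ± 0.05 (SE), adjusted p = 1.45e-09). At 24 h it measured 2.81, 2.80, 2.77 and 2.83, between the other time points without overlap (24 h minus 0 h log2 difference 0.29, adjusted p = 3.08e-04). In nsPEF cells the 0 h arrays measured 2.50, 2.64, 2.50 and 2.38, the 4 h arrays 3.15, 3.14, 3.23 and 3.10 and the 24 h arrays 2.75, 2.95, 2.79 and 2.94, the same order (log2 difference 0.65, adjusted p = 1.78e-09 for 4 h against 0 h; log2 difference 0.35, adjusted p = 3.16e-05 for 24 h against 0 h).

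The other non-ATPase subunits called higher in sham at 4 h were Psmd6 (log2 difference 0.58), Psmd7 (0.57), Psmd1 (0.34), Psmd14, the deubiquitinase of the lid (0.32), and Psmd3 (0.17), beside Psmd12 and Psmd4. Psmd2, Psmd13 and Psmd8 had log2 differences of 0.17, 0.14 and 0.03 and were not called.

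Psmd12, another lid subunit, measured 5.42, 5.51, 5.40 and 5.36 in sham 0 h, 6.25, 6.11, 6.06 and 5.92 in sham 4 h and 5.52, 5.55, 5.58 and 5.60 in sham 24 h. It rose at 4 h (1.58-fold, log2 difference 0.66 ± 0.06 (SE), adjusted p = 1.51e-08) and by 24 h had come down by 0.52, after which it was not called against 0 h (log2 difference 0.14, adjusted p = 0.0918). The nsPEF arrays measured 5.44, 5.47, 5.44 and 5.35 (0 h), 6.04, 6.14, 6.03 and 5.98 (4 h) and 5.57, 5.80, 5.59 and 5.72 (24 h). There the difference between 24 h and 0 h was called (log2 difference 0.25, adjusted p = 0.00429), and replicates 2 and 4 of nsPEF 24 h were the higher arrays.

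Psmd4 is the ubiquitin receptor of the base. It measured 5.95, 6.05, 6.01 and 5.97 in sham 0 h, 6.27, 6.27, 6.19 and 6.14 in sham 4 h and 5.95, 5.92, 5.98 and 6.20 in sham 24 h, and in nsPEF 5.93, 6.005, 5.87 and 5.82 (0 h), 6.19, 6.27, 6.28 and 6.31 (4 h) and 6.01, 6.31, 6.17 and 6.34 (24 h). At 4 h all arrays of either treatment lay above those at 0 h (log2 difference 0.22, adjusted p = 0.00995 in sham and log2 difference 0.36, adjusted p = 1.71e-04 in nsPEF). At 24 h the sham arrays overlapped those of 0 h, with replicate 4 higher, and the nsPEF arrays did not (log2 difference 0.30, adjusted p = 0.00168).

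The 6 ATPases, Psmc1 to Psmc6, form the ring that unfolds substrates, and Psmc1, Psmc2, Psmc4 and Psmc5 were called higher in sham at 4 h. Psmc4 measured 3.58, 3.51, 3.55 and 3.59 (0 h), 4.09, 4.11, 4.12 and 4.01 (4 h) and 3.72, 3.73, 3.74 and 3.79 (24 h) in sham. Its 3 groups did not overlap (log2 difference 0.53, adjusted p = 4.71e-07 at 4 h). Psmc5 measured 4.35, 4.33, 4.28 and 4.37 (0 h), 4.73, 4.88, 4.78 and 4.67 (4 h) and 4.23, 4.18, 4.29 and 4.34 (24 h), and its 24 h arrays overlapped those of 0 h (log2 difference 0.43, adjusted p = 1.76e-06 at 4 h). Psmc1 measured 5.90, 5.97, 5.99 and 5.86 (0 h), 6.22, 6.18, 6.14 and 5.96 (4 h) and 5.86, 5.87, 5.91 and 6.03 (24 h), a smaller rise at 4 h, with replicate 4 of sham 4 h inside the 0 h range (log2 difference 0.20, adjusted p = 0.00617). Psmc2 rose with a log2 difference of 0.35, and Psmc3 and Psmc6, at 0.10 and 0.16, were not called.

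Psmd5, Psmd9 and Psmd10 are not subunits of the finished particle but chaperones that hold the ATPases during assembly of the base, and they did not move as 1 group. Psmd5 had the largest rise of all members in sham, with 2.50, 2.52, 2.51 and 2.43 (0 h), 3.29, 3.23, 3.22 and 2.98 (4 h) and 2.73, 2.73, 2.81 and 2.69 (24 h) (1.61-fold, log2 difference 0.69 ± 0.06 (SE), adjusted p = 2.78e-09 at 4 h). No array at 4 h or 24 h reached down to those at 0 h. In the nsPEF series Psmd5 was at 2.50, 2.49, 2.53 and 2.51 (0 h), 3.17, 3.19, 3.16 and 2.95 (4 h) and 2.80, 2.78, 2.75 and 2.83 (24 h) (log2 difference 0.61, adjusted p = 1.67e-08 at 4 h). Psmd9 was called higher in both treatments at 4 h, with log2 differences of 0.15 in sham and 0.24 in nsPEF.

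Psmd10, also known as gankyrin, went the other way. It measured 3.34, 3.49, 3.20 and 3.35 in sham 0 h and 2.82, 2.83, 2.84 and 2.78 in sham 4 h, 1.44-fold lower (log2 difference -0.53 ± 0.06 SE, adjusted p = 6.59e-08). At 24 h it was at 3.14, 3.22, 3.29 and 3.25, above every 4 h array (log2 difference 0.40, adjusted p = 3.31e-06). With nsPEF the 0 h arrays were at 3.27, 3.22, 3.35 and 3.28, the 4 h arrays at 2.76, 2.73, 2.62 and 2.57 and the 24 h arrays at 3.04, 2.96, 3.01 and 2.95, and here the 24 h arrays stayed below all those at 0 h (log2 difference -0.29, adjusted p = 3.65e-04).

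Psmb8, Psmb9 and Psmb10 are the active beta subunits of the immunoproteasome, and all 3 were called lower in sham at 4 h and at 24 h. Psmb9 had the largest fall among the genes called. It measured 0.03, -0.12, -0.02 and -0.02 in sham 0 h and -1.17, -1.10, -1.41 and -1.19 in sham 4 h (2.27-fold lower, log2 difference -1.18 ± 0.07 SE, adjusted p = 2.05e-11). At 24 h it measured -0.90, -0.82, -0.998 and -0.91, slightly above 4 h (log2 difference 0.31, adjusted p = 0.00126) and still below 0 h (log2 difference -0.87, adjusted p = 1.73e-08). In nsPEF the values were -0.12, -0.01, -0.01 and -0.20 (0 h), -0.89, -0.98, -1.11 and -1.02 (4 h) and -0.90, -0.84, -0.99 and -1.14 (24 h), and the 0 h arrays again stood above all others (log2 difference -0.92, adjusted p = 9.80e-10 at 4 h).

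Psmb8 fell as well. It measured -1.997, -2.04, -2.08 and -2.33 in sham 0 h, -3.15, -3.12, -2.93 and -3.03 in sham 4 h and -2.85, -3.24, -3.04 and -2.93 in sham 24 h, 1.92-fold lower at 4 h than at 0 h (adjusted p = 9.55e-06). The nsPEF values were -2.39, -2.16, -2.41 and -2.39 (0 h), -2.99, -3.13, -2.85 and -3.05 (4 h) and -3.35, -3.88, -2.92 and -3.14 (24 h). The 0 h arrays were the highest in either treatment, and the fall lasted to 24 h (log2 difference -0.90, adjusted p = 5.40e-05 in sham and log2 difference -0.98, adjusted p = 1.81e-05 in nsPEF).

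Psmb10 changed less. It measured 4.94, 5.01, 4.86 and 4.92 in sham 0 h, 4.67, 4.67, 4.69 and 4.70 in sham 4 h and 4.60, 4.51, 4.63 and 4.69 in sham 24 h, lower at both later times (log2 difference -0.25, adjusted p = 2.10e-04 at 4 h and log2 difference -0.33, adjusted p = 3.25e-05 at 24 h). In nsPEF it measured 4.93, 4.88, 4.84 and 4.86 (0 h), 4.71, 4.72, 4.73 and 4.67 (4 h) and 4.75, 4.93, 4.72 and 4.89 (24 h), lower at 4 h (log2 difference -0.17, adjusted p = 0.00593) but not called at 24 h (log2 difference -0.05, adjusted p = 0.404).

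The constitutive subunits whose sites these replace were not called in sham at 4 h. Psmb5, the chymotrypsin-like subunit, measured 4.51, 4.53, 4.63 and 4.40 in sham 0 h, 4.58, 4.65, 4.73 and 4.77 in sham 4 h and 4.40, 4.40, 4.45 and 4.75 in sham 24 h, and in nsPEF 4.39, 4.58, 4.31 and 4.28 (0 h), 4.66, 4.64, 4.77 and 4.78 (4 h) and 4.47, 4.94, 4.80 and 4.94 (24 h). In sham the log2 difference at 4 h was 0.16 (adjusted p = 0.16), and in nsPEF all 4 h arrays lay above all 0 h arrays (log2 difference 0.32, adjusted p = 0.00782). Psmb7, the trypsin-like subunit, measured 4.21, 4.04, 4.19 and 4.21 (0 h), 4.26, 4.23, 4.40 and 4.21 (4 h) and 4.09, 4.21, 4.18 and 4.32 (24 h) in sham and 4.02, 4.15, 4.02 and 4.12 (0 h), 4.38, 4.33, 4.38 and 4.34 (4 h) and 4.21, 4.36, 4.30 and 4.40 (24 h) in nsPEF. It was called at 4 h in nsPEF and not in sham (log2 difference 0.11, adjusted p = 0.0996 in sham and log2 difference 0.28, adjusted p = 3.03e-04 in nsPEF), and its interaction of treatment and time was not called.

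Psmb6, the caspase-like subunit, measured 6.92, 6.94, 6.84 and 6.84 in sham 0 h, 6.92, 6.93, 6.94 and 6.72 in sham 4 h and 6.69, 6.75, 6.76 and 6.84 in sham 24 h. In nsPEF it measured 6.84, 6.79, 6.76 and 6.79 (0 h), 6.96, 6.999, 6.89 and 6.88 (4 h) and 6.83, 7.07, 6.88 and 7.04 (24 h), with a log2 difference at 4 h of 0.14 (adjusted p = 0.0508) and at 24 h of 0.16 (adjusted p = 0.0363). RefSeq lists 6 pseudogenes of Psma5, Psmb5, Psmb6 and Psmb7, so that values of these 4 genes are uncertain where a probe could also bind a copy.

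Of the remaining genes of the 20S core, 2 were called in sham at 4 h. Among the 7 alpha subunits, which form the gate, log2 differences ran from -0.02 for Psma5 to 0.26 for Psma3, the 1 that was called. Among the constitutive beta subunits without an active site, Psmb2 rose by 0.36 (adjusted p = 1.50e-04), and Psmb1, Psmb3 and Psmb4 had log2 differences of -0.01, 0.08 and 0.04. Over all the differences between groups described here, 32 of the 41 genes were called at least once, and Psma1, Psma2, Psma4, Psma5, Psma6, Psmb1, Psmb11, Psmd8 and Psme3 never were. The share of all genes called at least once was not counted. Time over both treatments alone was called for 84.2% of all genes, so the count of 32 does not set the members apart. In sham at 4 h, the log2 difference of Psma1 was 0.07, of Psma2 0.07, of Psma4 0.10, of Psma6 0.08 and of Psma7 0.15.

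**Figure D1:**
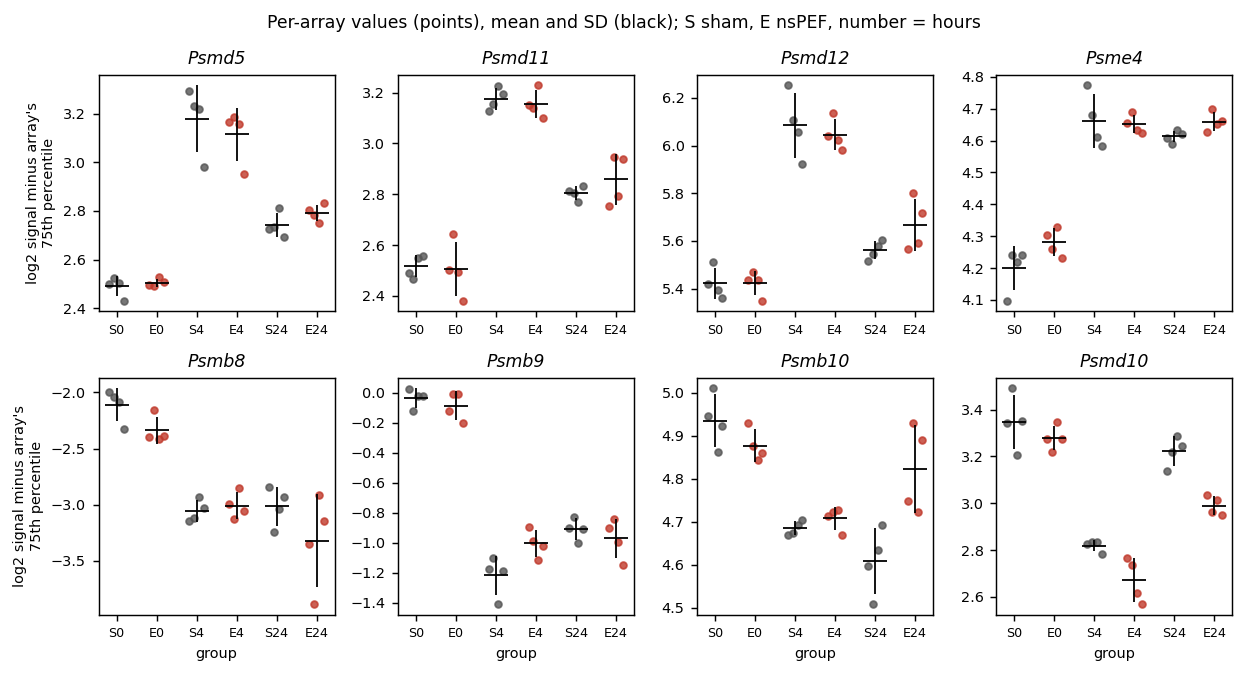
Values on each array for single genes, as log2 signal minus the 75th percentile of the array, with 4 points per group and the mean and SD in black, S for sham and E for nsPEF with the hours. Psmb9 drops after 0 h, Psmd5 and Psmd11 are highest at 4 h, and Psmd10 is lowest at 4 h.

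Of the activators, Psme1 and Psme4 moved in opposite directions. Psme1, a subunit of the interferon-responsive PA28 cap, measured 4.77, 4.75, 4.73 and 4.67 in sham 0 h, 4.21, 4.35, 4.30 and 4.37 in sham 4 h and 4.12, 4.19, 4.23 and 4.39 in sham 24 h. It fell at 4 h (log2 difference -0.42, adjusted p = 2.96e-06) and was still below at 24 h (log2 difference -0.50, adjusted p = 1.47e-06). Psme1 in nsPEF measured 4.65, 4.67, 4.60 and 4.51 (0 h), 4.28, 4.29, 4.31 and 4.38 (4 h) and 4.07, 4.25, 4.26 and 4.24 (24 h), and the 0 h arrays were again the highest (log2 difference -0.29, adjusted p = 2.14e-04 at 4 h).

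Psme4 encodes PA200, a large nuclear activator. It measured 4.10, 4.24, 4.22 and 4.24 in sham 0 h, 4.77, 4.68, 4.61 and 4.58 in sham 4 h and 4.61, 4.59, 4.63 and 4.62 in sham 24 h (1.38-fold, log2 difference 0.46 ± 0.04 (SE), adjusted p = 1.44e-08 at 4 h). The nsPEF arrays held Psme4 at 4.31, 4.26, 4.33 and 4.23 (0 h), 4.66, 4.69, 4.63 and 4.62 (4 h) and 4.63, 4.70, 4.65 and 4.66 (24 h). At 24 h in sham it was still above 0 h, with a log2 difference of 0.41 (adjusted p = 4.15e-07), and the log2 difference from 4 h was -0.05 (adjusted p = 0.365).

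Psme3, the nuclear PA28 gamma, was called in none of the comparisons. It measured 2.84, 2.80, 2.59 and 2.85 (0 h), 3.30, 3.16, 3.14 and 2.26 (4 h) and 3.03, 3.11, 3.11 and 2.68 (24 h) in sham and 2.78, 2.70, 2.71 and 2.87 (0 h), 3.20, 3.13, 2.79 and 2.68 (4 h) and 3.04, 2.78, 2.56 and 2.72 (24 h) in nsPEF, with replicate 4 of sham 4 h far below the other 3 arrays of its group.

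The subunits known from single tissues were at or near background. Psma8, the alpha subunit of male germ cells, was well above background on 0 arrays and was not tested. It measured -6.78, -7.08, -6.87 and -6.996 in sham 0 h, -6.04, -6.26, -6.75 and -6.50 in nsPEF 0 h, -6.87, -7.03, -5.93 and -7.42 in sham 4 h, -6.05, -6.24, -5.78 and -6.21 in nsPEF 4 h, -7.02, -6.88, -6.95 and -6.77 in sham 24 h and -6.34, -6.01, -6.32 and -5.85 in nsPEF 24 h. Psmb11, the thymus subunit, was well above background on 4 arrays and entered the tests only through sham 0 h, where it measured -1.66, -4.83, -7.09 and -7.17. Its other values were -6.23, -5.58, -6.95 and -6.69 in nsPEF 0 h, -4.11, -7.21, -6.73 and -7.57 in sham 4 h, -6.23, -6.39, -5.94 and -6.41 in nsPEF 4 h, -5.43, -3.86, -6.003 and -7.02 in sham 24 h and -6.52, -6.23, -6.56 and -6.08 in nsPEF 24 h. The spread among replicates of Psmb11 (within-group SD 1.38) was far above the median over the members (0.0835).

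By 24 h, with values scaled to the array's own percentile, the sham cells had lost most of the rise in the 19S genes. Between 4 h and 24 h, 17 members were called lower (33.8% of all genes) and 2, Psmd10 and Psmb9, higher (31.7% of all genes), and 13 of the 17 19S subunits were among those lower. The direction of this fall rests on the scaling. With quantile normalization the members counted 11 higher and 7 lower, with the percentile over detected probes 7 higher and 9 lower, and with spike-in scaling 38 higher and 0 lower. Spike-in scaling moved the median of all genes to 0.66, and relative to all genes the members' median was -0.13 with the array's own percentile, with the percentile over detected probes and with spike-in scaling, and -0.02 with quantile normalization.

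Between 24 h and 0 h in sham, 7 members were called higher (15.7% of all genes) and 5 lower (22.8% of all genes), with a median of 0.01. Those higher were Psme4, Psmd11, Psmd5, Psmb2, Psmc4, Psmd7 and Psmd1, and those lower were Psmb8, Psmb9, Psme1, Psmb10 and Psmb4. The split was 22 higher and 4 lower with quantile normalization, 11 and 5 with the percentile over detected probes, and 38 and 0 with spike-in scaling, under which Psme1 and Psmb10 turned to log2 differences of 0.20 and 0.37. Spike-in scaling moved the median of all genes from -0.02 to 0.67, and the members' median relative to all genes was 0.04 with either scaling and 0.13 with quantile normalization.

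**Figure D2:**
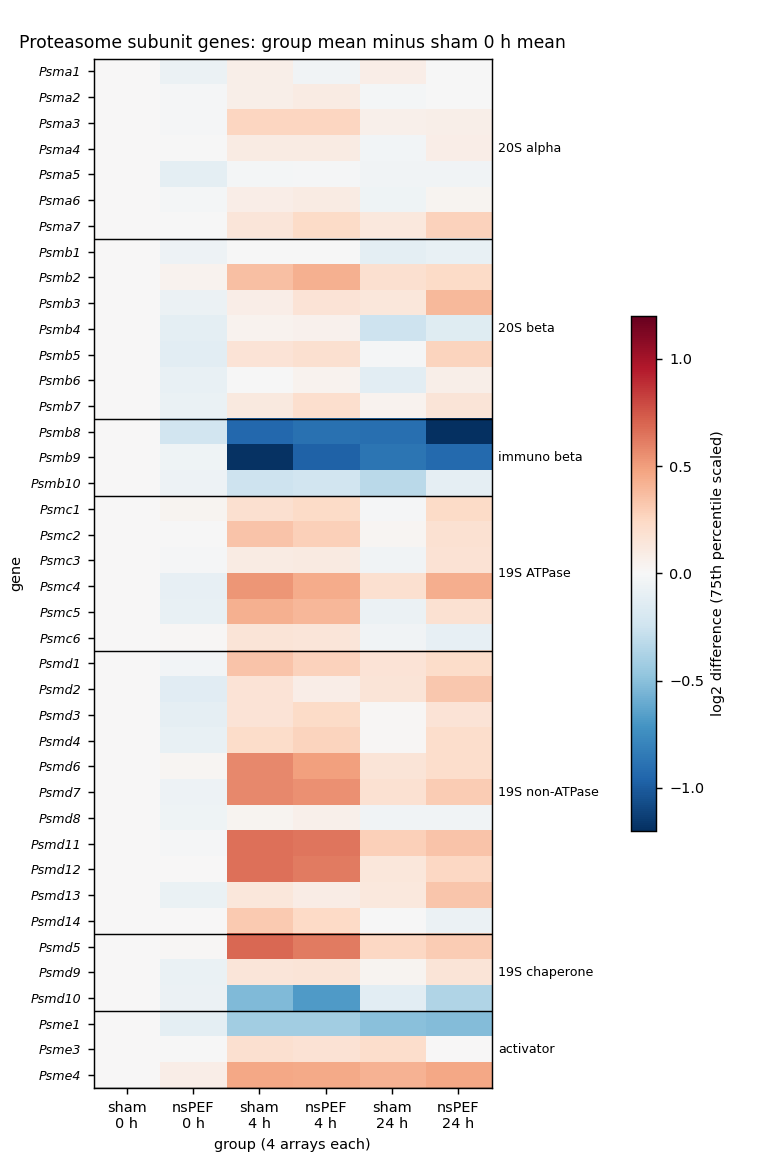
Group means of 40 subunit genes as log2 differences from the sham 0 h mean, with genes in rows by role and the 6 groups of 4 arrays in columns. Most 19S rows are highest at 4 h, Psmb8, Psmb9 and Psme1 are lower at 4 h and 24 h, and Psmd10 is lowest at 4 h.

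In nsPEF cells the 19S genes rose and the immunoproteasome genes fell as well, with more members past the threshold. Between 0 h and 4 h, 24 members were called higher (34.8% of all genes) and 5 lower (33.0% of all genes), with a median of 0.22 against 0.05 over all genes. The 5 lower were Psmb9, Psmb8, Psmd10, Psme1 and Psmb10. In the 19S particle 14 of 17 were called higher, and in the constitutive 20S core 7 of 14. In sham the count for this core was 2 of 14. Replicate 4 of sham 4 h was low for the core. At 0 h the core's median nsPEF minus sham difference was -0.07, against -0.04 over all genes. Whether either bears on the counts of the core was not tested. The sham and nsPEF series share no arrays but share slides, and side by side 17 members were called higher in both, 5 lower in both, 0 in opposite directions and 7 higher in nsPEF alone. Those 7 were Psmb5 and Psmb7, with the values given above, and Psma7 (0.23), Psmb3 (0.23), Psmb4 (0.17), Psmd2 (0.22) and Psmd13 (0.17), given as log2 differences from 0 h. The shares of all genes called in both treatments, in opposite directions or in nsPEF alone were not counted. Quantile normalization gave 14 higher and 6 lower for nsPEF.

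Between 4 h and 24 h in nsPEF, 4 members were called higher (31.7% of all genes) and 11 lower (31.7% of all genes). Psmd10 (log2 difference 0.32), Psmd2 (0.24), Psmd13 (0.24) and Psmb3 (0.23) were higher, and Psmd12, Psmd5 and Psmd14 led those lower. As in sham, the direction rests on the scaling, with 20 higher and 4 lower under quantile normalization, 12 and 4 with the percentile over detected probes and 30 and 0 with spike-in scaling.

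At 24 h the nsPEF cells held 23 members called higher than at 0 h (24.3% of all genes) and 4 lower (21.5% of all genes), with a median of 0.19 against 0.04. Among the 19S subunits 14 of 17 were higher, against 4 of 17 in sham, and among the constitutive beta subunits 5 of 7 against 1 of 7. With quantile normalization this contrast was nearly absent among the 19S subunits. In sham 4 of 6 ATPases and 9 of 11 non-ATPases were then higher, and in nsPEF 5 of 6 and 9 of 11. The members counted 26 higher and 4 lower in nsPEF with that scaling. Of the members, 16 were called higher in nsPEF alone at this time, and the share of all genes with such calls was not counted. Of all genes, 24.3% were called higher in nsPEF and 15.7% in sham. Psmc4 (log2 difference 0.53, adjusted p = 1.89e-06), Psmb5 (log2 difference 0.40, adjusted p = 0.0029) and Psmb7 (log2 difference 0.24, adjusted p = 0.00267) were among those higher. The log2 differences of Psmd2 (0.47), Psmb3 (0.46) and Psmd13 (0.41) came next after that of Psmc4.

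Whether the course over time differed between the treatments was tested by the interaction of treatment and time, which was called for 0 of 41 members by limma (0.427% of all genes). The count was 13 with array weights and 5 without replicate 1 of nsPEF 24 h. At an unadjusted p under 0.05, the nsPEF minus sham difference was larger at 24 h than at 0 h for 16 members, all in the positive direction (16.8% of all genes in either direction), with a median of 0.12 against 0.04 over all genes. Time over both treatments was called for 30 of 41 members (84.2% of all genes). The group mean was highest at 4 h for 29 members in sham and 25 in nsPEF, and at 24 h for 3 in sham and 11 in nsPEF. The shares of all genes highest at each time were not counted. Over all genes the median of 24 h minus 0 h was -0.02 in sham and 0.04 in nsPEF.

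**Figure D3:**
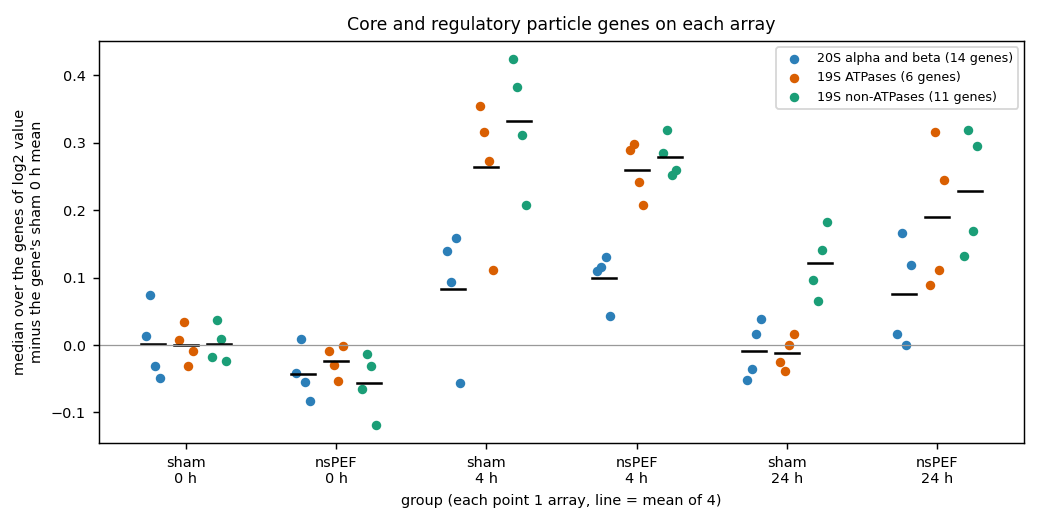
Median, over the genes of a particle or part of it, of the log2 value minus the gene's sham 0 h mean. Points are arrays of the 6 groups, and the line is the mean of 4 arrays. The 19S ATPase median spans 0.11 to 0.35 in sham 4 h and 0.09 to 0.32 in nsPEF 24 h. In sham 24 h the ATPase median spans -0.04 to 0.02. The 19S non-ATPase median spans 0.21 to 0.42 in sham 4 h and 0.13 to 0.32 in nsPEF 24 h. In sham 24 h the non-ATPase median spans 0.07 to 0.18.

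No subunit gene passed the test between nsPEF and sham at 0 h or 4 h. At 0 h, 0 members were called higher (0.0356% of all genes) and 0 lower (0.0653% of all genes), and 1 member had an unadjusted p under 0.05 by limma (8.47% of all genes). At 4 h, 0 were called higher (1.69% of all genes) and 0 lower (2.35% of all genes), with 2 at an unadjusted p under 0.05 by limma (23% of all genes) and a median of 0.00. Spike-in scaling, which moved the median of all genes from -0.02 to 0.17, called 9 higher at 4 h, and the members' median relative to all genes was 0.02 with either scaling.

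At 24 h, 4 members were called higher in nsPEF (2.76% of all genes) and 1 lower (2.98% of all genes), with a median of 0.09 against 0.01. The 4 were the ATPases Psmc1, Psmc4 and Psmc5 and the immunoproteasome subunit Psmb10, and the 1 lower was Psmd10. At an unadjusted p under 0.05, 15 were higher and 2 lower (24.9% of all genes in either direction).

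Psmc5 measured 4.38, 4.59, 4.44 and 4.66 in nsPEF 24 h against the sham 24 h values given above, all of which were lower (1.2-fold, log2 difference 0.26 ± 0.06 (SE), adjusted p = 0.0165). Psmc1 measured 6.07, 6.28, 6.09 and 6.20 in nsPEF 24 h, again above all 4 sham arrays (log2 difference 0.24, adjusted p = 0.0218), and Psmc4 3.81, 4.05, 3.87 and 4.22 (log2 difference 0.24, adjusted p = 0.0351). In all 3 genes replicates 2 and 4 were the higher nsPEF arrays. At the earlier times the nsPEF values were 4.30, 4.21, 4.20 and 4.27 (0 h) and 4.73, 4.78, 4.73 and 4.70 (4 h) for Psmc5.

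Those for Psmc1 were 5.97, 5.97, 5.95 and 5.94 at 0 h and 6.18, 6.16, 6.18 and 6.12 at 4 h, and those for Psmc4 were 3.45, 3.49, 3.46 and 3.45 (0 h) and 3.93, 3.98, 4.08 and 3.995 (4 h). Psmb10 in nsPEF 24 h lay above all sham 24 h arrays (log2 difference 0.22, adjusted p = 0.0194). Psmd10 in nsPEF 24 h lay below them all (1.17-fold lower, log2 difference -0.23, adjusted p = 0.024).

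These calls at 24 h rest on few arrays. The count of 5 became 0 without replicate 2 or replicate 4 of nsPEF 24 h and 0 without replicate 2 of sham 24 h, and it became 16 without replicate 1 of nsPEF 24 h. It was 2 without replicate 1 or replicate 3 of sham 24 h, 11 without replicate 4 of sham 24 h and 8 without replicate 4 of sham 4 h. It was 0 when only the 2 groups compared were fitted, and 4 higher and 2 lower with quantile normalization.

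**Figure D4:**
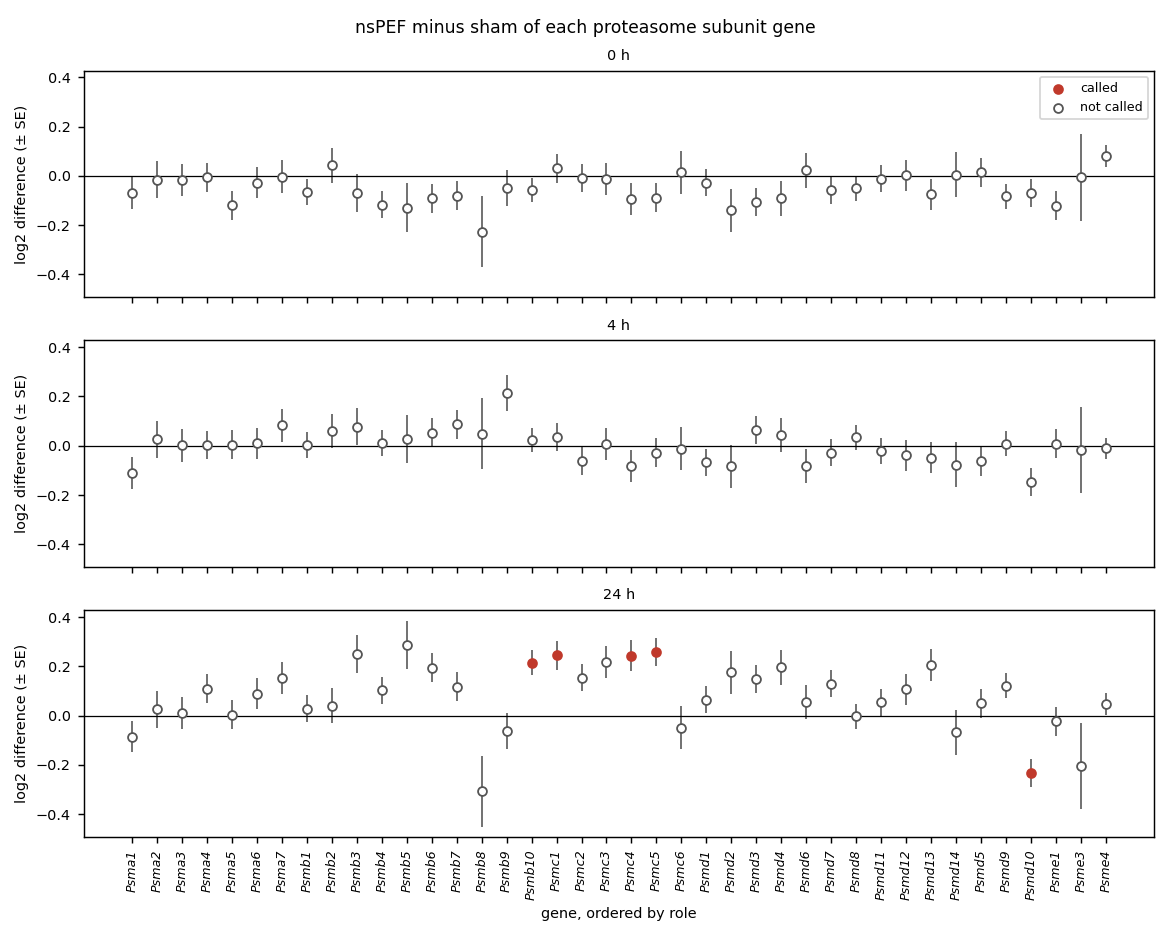
Difference between nsPEF and sham for 40 subunit genes at 0 h, 4 h and 24 h (panels), as log2 difference with SE on the y axis and genes by role on the x axis. Called genes, 0 at 0 h, 0 at 4 h and 5 at 24 h, are filled.

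Averaged over the 3 time points, 0 members were called higher in nsPEF (4.02% of all genes) and 1 lower (6.04% of all genes). This was Psmd10, with a log2 difference of -0.15 ± 0.03 (SE, adjusted p = 0.0107). It was not called without the arrays numbered 2 (adjusted p = 0.107) or 4 (0.0728), nor with spike-in scaling (log2 difference -0.06, adjusted p = 0.428), under which 12 members were higher, and over its 40 alternatives the adjusted p ran from 0.00319 to 0.428. At 4 h its difference was -0.15 (adjusted p = 0.145).

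For 16 members several probes were on the array. Among members called in sham at 4 h, 11 of 11 other probes had the same sign and were called, and in nsPEF at 4 h 14 of 14 had the same sign and 11 were called. For sham at 24 h against 0 h, 5 of 6 had the same sign and 1 was called. For nsPEF at 24 h against 0 h, 14 of 14 had the same sign and 8 were called. For nsPEF against sham at 24 h there was 1 other probe, with the same sign and not called.

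Around the subunits, lists of partner genes were counted in the same tests, to be read against the 30.8% of all genes called higher and 34.6% called lower in sham at 4 h. Of 7 assembly factors, 4 were called higher and 1 lower in sham at 4 h, led by Psmg3, a core assembly chaperone (log2 difference 0.79, adjusted p = 6.84e-08), and Psmg4 (log2 difference 0.39, adjusted p = 0.00951). Of 11 proteins that bind the proteasome, 6 were higher and 0 lower. Psmf1, the inhibitor PI31, rose by 1.03 (adjusted p = 3.33e-13), from 0.73, 0.78, 0.76 and 0.73 at 0 h to 1.77, 1.81, 1.81 and 1.74 at 4 h, with 0.85, 0.80, 0.84 and 0.83 at 24 h. Adrm1, a ubiquitin receptor, rose by 0.96 (adjusted p = 3.17e-10) and measured 3.31, 3.30, 3.39 and 3.38 (0 h), 4.27, 4.24, 4.36 and 4.36 (4 h) and 3.26, 3.33, 3.28 and 3.40 (24 h). Both rises were larger than that of Psmd5, the largest among the genes chosen by name.

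Of 10 genes around the transcription factor Nrf1, 6 were higher and 3 lower in sham at 4 h. Nfe2l1, which encodes Nrf1 itself, was the 1 not called. It measured 4.14, 4.21, 4.11 and 4.19 in sham 0 h and 4.15, 4.19, 4.14 and 4.06 in sham 4 h. Ddi2, the protease that cleaves Nrf1, rose (log2 difference 1.24, adjusted p = 1.44e-12), and Ngly1, the glycanase that removes its sugars, fell (log2 difference -1.41, adjusted p = 2.11e-13). Of 6 genes for ubiquitin and its activation, 1 was higher and 4 lower, with Ubb, a polyubiquitin gene, among those lower (log2 difference -0.64, adjusted p = 3.77e-06). Of 10 shuttle and extraction factors, 5 were higher and 2 lower, led by Ubqln1 (log2 difference 0.98, adjusted p = 2.33e-09) and Rad23b (log2 difference 0.88, adjusted p = 8.01e-10), which carry ubiquitinated proteins to the proteasome.

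Of 11 genes of class I presentation and its regulators, 2 were higher and 4 lower. H2-K1, which encodes a class I molecule, rose by 0.52, from 5.02, 5.11, 4.89 and 5.02 in sham 0 h to 5.59, 5.60, 5.46 and 5.47 in sham 4 h. Tap1, the peptide transporter subunit whose start lies 225 bases from that of Psmb9, measured 1.004, 1.01, 0.87 and 0.91 in sham 0 h, -1.84, -1.53, -1.85 and -1.88 in sham 4 h and 0.34, 0.23, 0.28 and 0.17 in sham 24 h. It fell 6.6-fold at 4 h (log2 difference -2.72, adjusted p = 1.60e-16) and then rose by 2.03 (adjusted p = 2.34e-14), whereas Psmb9 regained 0.31. Tap2 also fell at 4 h (log2 difference -1.10, adjusted p = 7.54e-13). In nsPEF Tap1 measured 0.83, 0.76, 0.93 and 0.93 (0 h), -2.04, -2.27, -2.04 and -2.23 (4 h) and 0.09, -0.14, 0.06 and -0.10 (24 h), and it was lower than in sham at 4 h (log2 difference -0.37, adjusted p = 0.0169) and at 24 h (log2 difference -0.28, adjusted p = 0.0479).

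In nsPEF at 4 h against 0 h, where 34.8% of all genes were called higher and 33.0% lower, the counts higher and lower were 4 and 1 for the assembly factors, 6 and 1 for the bound proteins, 6 and 3 for the Nrf1 genes, 1 and 2 for ubiquitin, 5 and 1 for the shuttles and 2 and 4 for class I presentation. At 24 h against nsPEF 0 h (24.3% and 21.5% of all genes) they were 3 and 0, 4 and 2, 2 and 4, 1 and 2, 5 and 0, and 0 and 5 in the same order. In sham at 24 h against 0 h (15.7% and 22.8% of all genes) they were 1 and 1, 1 and 2, 2 and 3, 1 and 4, 3 and 0, and 0 and 4. Between nsPEF and sham at 24 h, Adrm1 (log2 difference 0.31, adjusted p = 0.0207), Psmf1 (log2 difference 0.22, adjusted p = 0.0172) and the extraction factor Nploc4 (log2 difference 0.22, adjusted p = 0.0482) were higher. Over the 3 time points Ngly1 was lower in nsPEF (log2 difference -0.14, adjusted p = 0.0326), as was Tap1 (log2 difference -0.24, adjusted p = 0.00505).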

How the data were processed

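Per the labels and file headers, Cy3-labelled RNA of 24 TM3 samples was put on one-colour Agilent arrays, and the authors' deposited scanner files, from Agilent Feature Extraction 12.0, hold processed signal intensity, background-subtracted and detrended, not scaled between arrays. The authors also deposited a table of log2 values, shifted to the 75th percentile and centred on each probe's median, with column medians of -0.2026 to 0.2893, which was used only as an alternative (r = 0.999747 with the scanner values).

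Spots not marked as outliers were averaged per probe, and log2 signals minus the array's 75th percentile were fitted as 6 group means over 24 arrays (R 4.3.3, limma 3.58.1, and version 1.17.8 of data.table). Tested probes had to be well above background on 2 or more arrays of some group. Adjusted p-values are Benjamini-Hochberg over 37687 probes, and each gene is given by its probe with the highest mean. Saturated spots numbered 0. The number of arrays limits the precision, and the p-values set a difference of group means against the spread among arrays within the groups. As each time point is on 1 slide, those for differences over time hold no measure of variation between slides.

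The subunit genes and partner lists were chosen with earlier results of these data known. Values on each array are printed for the active and replacement beta subunits, Psma8, Psmb11, Psmd4, the activators, and the 3 members that rose and the 3 that fell most among those called in sham at 4 h and 24 h against 0 h and in nsPEF against sham at 4 h and 24 h. For the partner lists, at most 2 genes per list and comparison, the largest called, are named, with Nfe2l1 and H2-K1 added in sham at 4 h. Alternatives covered scaling, background correction, filters, probe choice, arrays left out and the model, as given in the closing section. The scripts were tested on simulated data.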

Additional observations from a re-analysis of the deposited data

Results flagged for a closer look

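Among 114 groups of 4 arrays, 6 for each of 19 named members, 8 held 1 array whose gap to the nearest other array was at least 0.83 of the range of the group, and chance gives about 1 in 20. Replicate 4 of sham 4 h, the array with the brightest 75th percentile, was low for Psmb6 (6.72, nearest 6.92, ratio 0.94) and for Psme3 (2.26, nearest 3.14, ratio 0.85). Replicate 4 was high for Psmb5 in sham 24 h (4.75, nearest 4.45, ratio 0.853) and low for Psmd5 in nsPEF 4 h (2.95, nearest 3.16, ratio 0.885). In sham 0 h, replicate 2 was low for Psmb7 (4.04, nearest 4.19, ratio 0.88) and replicate 1 low for Psme4 (4.10, nearest 4.22, ratio 0.83). In nsPEF, replicate 2 of 0 h was high for Psmb8 (-2.16, nearest -2.39, ratio 0.9) and replicate 1 of 24 h low for Psme1 (4.07, nearest 4.24, ratio 0.931).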

How the results depend on the processing

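The rise of Psmd5, Psmd11 and Psmd12 and the fall of Psmb9, Psmb8 and Psmd10 in sham at 4 h kept their direction and stayed called under all 40 alternatives. Beside the splits given in the report, array weights called 16 members for nsPEF against sham at 24 h, 3 over the time points and 13 for the interaction. The mean of a gene's probes gave 9, 2 and 2. No filter gave 10 at 24 h, 1 at 4 h, 3 over the time points (2 higher) and 9 (4 higher, 5 lower) for sham 24 h against 0 h. Normexp gave 3 at 24 h, 1 at 4 h and 2 over the time points. Fitting only the groups compared gave 0 at 24 h. The percentile over detected probes gave 16 (12 higher) for nsPEF 24 h against 4 h, 10 for nsPEF against sham at 24 h and 3 over the time points (2 higher). Quantile normalization gave 18 for sham 24 h against 4 h, 26 for sham 24 h against 0 h, 24 for nsPEF 24 h against 4 h and 4 over the time points (1 higher). Spike-in scaling gave 38, 38 and 30 for these 3, 9 for nsPEF against sham at 4 h, 0 at 24 h and 12, all higher, over the time points. Spot-row centring and the two-way analysis of variance without moderation gave 2 each over the time points. Among single genes, spike-in scaling turned Psme1 to 0.20 and Psmb10 to 0.37 for sham 24 h against 0 h, and spot-row centring turned Psmb6 to -0.025 for nsPEF 4 h against 0 h. The cause was not tested.

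Without 1 array or 1 replicate number, the counts ranged over 18 to 26 for sham 4 h against 0 h, 12 to 24 for sham 24 h against 4 h, 9 to 13 for sham 24 h against 0 h, 22 to 30 for nsPEF 4 h against 0 h, 11 to 16 for nsPEF 24 h against 4 h, 21 to 27 for nsPEF 24 h against 0 h, 0 to 0 for nsPEF against sham at 0 h and at 4 h, 0 to 16 at 24 h, 0 to 2 over the time points, 28 to 37 for time and 0 to 5 for the interaction. For sham 24 h against 0 h, calls lower outnumbered those higher without replicate 3 of sham 0 h (10) and without replicate 4 of sham 24 h (9), and without all arrays numbered 1 (9) or 3 (9). The difference of Psmd10 over the time points was not called without the arrays numbered 2 (-0.13) or 4 (-0.13). The 5 interaction calls came without replicate 1 of nsPEF 24 h. Per the methods, the tests of a biological replicate used 1 cell suspension, but whether the array numbers mark it is not stated. Deviations of same-numbered arrays had a mean r of 0.034 (-0.219 to 0.289), against -0.0112 for arrays of other numbers. Of 12 sham and nsPEF pairs of a time point 7 were over 0.1, and these pairs ran from -0.159 to 0.289. Of 24 arrays, 10 correlated best with their own number, and pairing by number was neither established nor excluded. With the replicate block the counts were 22, 19, 12, 29, 15, 27, 0, 0, 5, 1, 31 and 0 in the same order, and that for time was the only one that moved. Signal over background limits Psma8 and Psmb11.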
